A study of Homo sapiens with 8 samples.

Results

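The miR-191/miR-425 cluster consists of 2 miRNA hairpins, MIR191 and MIR425, in an intron of DALRD3 on the short arm of chromosome 3. Its 4 mature products, hsa-miR-191-5p, hsa-miR-191-3p, hsa-miR-425-5p and hsa-miR-425-3p, were taken by name from a table of 3112 miRNAs, of which 1482 were known and 1630 were predicted by the authors. All 4 had enough counts to be among the 895 miRNAs tested. Small RNA was sequenced from 8 samples of 786O, an established human kidney cancer line (clear cell renal cell carcinoma) with a mutated VHL gene. The labels name 4 samples as negative control (NC), which received a control plasmid, and 4 as circSOD2-sh, which received a plasmid with a short hairpin RNA against circSOD2, a circular RNA made from exons of SOD2. The labels describe delivery with Lipofectamine 3000 and RNA extraction 48 h later, whereas the methods of the study describe lentivirus and puromycin selection, and which of the study's hairpin RNAs was used is not stated. Nothing in the labels says that the 4 samples of a group were separate cultures, so p-values measure only the spread between these samples, which may be technical. The level of circSOD2 and the number of copies of 3p in these cells were not analysed here.

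A miRNA hairpin is cut from its primary transcript by Drosha and then by Dicer, which leaves a duplex of a 5p and a 3p arm. Usually 1 arm is loaded into an Argonaute protein and kept, and the other arm is degraded, so both arms of a hairpin share their transcription and differ in loading and decay. A loaded miRNA pairs with its targets mainly through its seed, here bases 2 to 8. miR-191-5p is abundant in many tissues and, like miR-425-5p, is often used as an internal reference in expression assays, and the short arm of chromosome 3, which also holds VHL, is often lost in clear cell renal carcinoma.

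On GRCh38, MIR191 lies on the minus strand at chr3:49020618-49020709 (92 bases) and MIR425 at chr3:49020148-49020234 (87 bases), with 383 bases between them. Both lie in intron 1 of DALRD3, which encodes a protein with a DALR anticodon-binding domain, in each of the 4 DALRD3 transcripts of GENCODE release 29 that span them. MIR191 also lies in intron 1 of 1 transcript of NDUFAF3, a gene for an assembly factor of respiratory complex I that is read from the opposite strand. The mature sequences below, from RefSeq on GRCh38.p14, show the seeds in capitals, since the seed sets which targets an arm can pair with, and 3 of the 4 arms matched by name.
miR-191-5p: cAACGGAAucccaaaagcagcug
miR-191-3p: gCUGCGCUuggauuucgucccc
miR-425-3p: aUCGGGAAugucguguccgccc
None of these 3 seeds was shared with another of the 2370 mature miRNA names in the table. The MIR191 hairpin is shown because its arms differed most in level, with both mature arms in capitals and 19 bases between them.
MIR191: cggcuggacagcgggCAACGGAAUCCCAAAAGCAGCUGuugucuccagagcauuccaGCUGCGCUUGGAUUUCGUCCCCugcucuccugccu

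Total counts were between 6386872 and 9245044 in the NC libraries and between 3743860 and 4208276 in the circSOD2-sh libraries. The share of counts on known miRNAs was 36.2% to 41.9% in NC libraries and 95.1% to 96.5% in circSOD2-sh libraries, so the choice of scaling bears on every level below. Levels are given as normalized CPM, that is reads scaled to a common library size (CPM) by the trimmed mean of M values (TMM). With edgeR's quasi-likelihood test, 588 of the 895 miRNAs (65.7%) had a Benjamini-Hochberg adjusted p under 0.05, of which 298 (33.3%) were higher and 290 (32.4%) were lower in circSOD2-sh. Scaling to library totals instead gave 613 higher and 158 lower, and scaling to the totals of known miRNAs gave 214 higher and 402 lower. Over all tested miRNAs, log2 fold changes had a median of -0.0021 with TMM, 0.96 with library totals and -0.35 with totals of known miRNAs. Of the kidney tubule markers, miR-30a-5p made up most of a summed level of 39536 to 46430 in NC and 43783 to 54743 in circSOD2-sh. miR-192-5p was at 335 to 953 in NC and 269 to 282 in circSOD2-sh, miR-194-5p at 27.6 to 92.4 and 20.7 to 29.1, and miR-204-5p was at most 0.899 in NC. The 5 epithelial markers summed to 5086 to 5828 in NC and 4398 to 4868 in circSOD2-sh. Most of this was miR-200b-3p, at 3774 to 4455 and 3305 to 3665, and miR-200a-3p was at 936 to 1231 and 775 to 897. miR-200c-3p was at 8.44 to 32.6 and 3.74 to 7.02, and miR-141-3p at 5.68 to 25.4 and 1.02 to 3.38. For miR-429 the groups overlapped, at 328 to 417 and 312 to 381. The part of these differences in the results below was not tested. miR-210-3p, the miRNA induced by the hypoxia factor HIF, was at 20.0 to 27.0 in NC and 13.9 to 19.8 in circSOD2-sh.

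A pair of libraries stood apart in markers of other tissues. NC replicate 4 had 554 normalized CPM of the 4 stroma and muscle markers, where the other NC libraries had 17.7 to 22.8. circSOD2-sh replicate 2 had 5238 normalized CPM of the 5 neural markers, where the other libraries of its group had 476 to 494. The levels and ratios of the members below are therefore also given without both. In these bulk samples, fewer cells that make a miRNA and less of that miRNA per cell cannot be told apart.

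The 4 members covered a wide range of levels, and their order was the same in all 8 libraries, miR-191-5p above miR-425-5p, miR-425-3p and miR-191-3p. No neighbours in this order overlapped in either group. A difference of level between miRNAs also carries the unequal ligation and amplification of their sequences, which was not tested. In circSOD2-sh, 2 of the 4 members were called higher, 1 was called lower and 1 was not called with TMM, whereas all 4 were called higher with library totals. Over all 895 miRNAs 65.7% were called with TMM, and 771 were called with library totals, so the members were called about as often as miRNAs in general. The median log2 fold change of the members with TMM was 0.05. The 5p to 3p ratio was higher in circSOD2-sh for both hairpins, although the call for miR-191 was lost when certain libraries were left out.

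miR-191-5p, the dominant arm of MIR191, was the most abundant member and ranked 7 or 8 among the known miRNAs of NC libraries and 5 in all circSOD2-sh libraries. It was at 15585, 16751, 17409 and 15470.2 normalized CPM in NC replicates 1 to 4, from 101608, 108809, 102093 and 68832 counts. In circSOD2-sh replicates 1 to 4 it was at 19578, 20903, 21924 and 21183 normalized CPM, from 115189, 118391, 109256 and 119095 counts. Every circSOD2-sh library was thus above every NC library, as 540 of the 895 miRNAs (60.3%) had groups that did not overlap in one direction or the other. The means were 16304 ± 937 in NC and 20897 ± 979 in circSOD2-sh (SD, n = 4 each). The log2 fold change was 0.36 (SE 0.07, 95% interval 0.21 to 0.51, edgeR adjusted p = 9.36e-04), a 1.28-fold higher level. As a share of the counts of known miRNAs it was 3.02% ± 0.05 in NC and 3.04% ± 0.11 in circSOD2-sh. Scaled to these counts, the log2 fold change was 0.013 and the edgeR adjusted p was 0.817, whereas library totals gave 1.32 (edgeR adjusted p = 7.20e-08) and upper-quartile factors 1.20 (edgeR adjusted p = 3.73e-06). It was also lost without circSOD2-sh replicate 3 (log2 fold change 0.18, edgeR adjusted p = 0.119). Without NC replicate 4 and circSOD2-sh replicate 2 the log2 fold change was 0.23 (edgeR adjusted p = 0.0143).

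**Figure D1:**
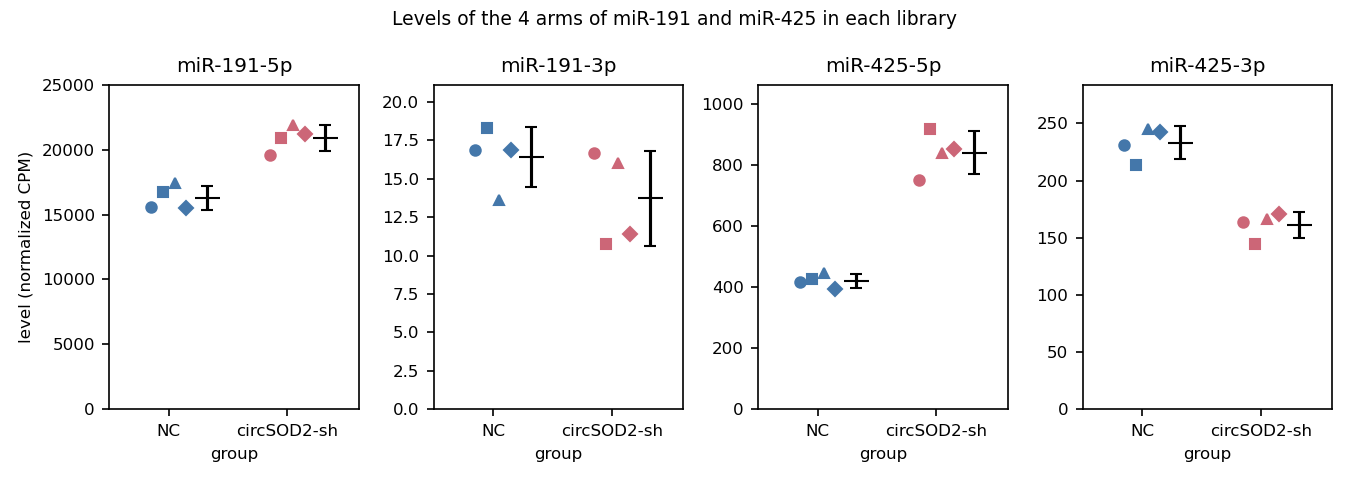
Normalized CPM (TMM, vertical axes from 0, a scale for each panel) of the 4 members in the 4 NC and 4 circSOD2-sh libraries. Circles, squares, triangles and diamonds are replicates 1, 2, 3 and 4, and the black bar is the mean with the SD. The groups do not overlap for miR-191-5p, miR-425-5p and miR-425-3p, and they overlap for miR-191-3p.

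miR-191-3p, the minor arm of the same hairpin, was read from few counts and did not differ by the test. It had 110, 119, 80 and 75 counts in NC replicates 1 to 4 and 98, 61, 80 and 64 counts in circSOD2-sh replicates 1 to 4. These gave 16.9, 18.3, 13.6 and 16.9 normalized CPM in NC and 16.7, 10.8, 16.1 and 11.4 in circSOD2-sh, and the groups overlapped. Counting error alone was 9.17% to 12.8% per library. The means were 16.4 ± 1.98 in NC and 13.7 ± 3.07 in circSOD2-sh (SD, n = 4 each), with a log2 fold change of -0.26 (SE 0.19, 95% interval -0.69 to 0.17, edgeR adjusted p = 0.255). Without both libraries that stood apart it was -0.25 (edgeR adjusted p = 0.271). With library totals the log2 fold change turned to 0.71 (edgeR adjusted p = 0.00701), and with totals of known miRNAs it was -0.60 (edgeR adjusted p = 0.0275).

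miR-425-5p was higher in circSOD2-sh, and with TMM its log2 fold change was the largest of the members in size, whereas with totals of known miRNAs that of miR-425-3p was larger (-0.87). In NC replicates 1 to 4 it was at 417, 425.4, 447 and 392 normalized CPM, from 2717, 2763, 2623 and 1744 counts. In circSOD2-sh replicates 1 to 4 it was at 749, 919, 838 and 853 normalized CPM, from 4409, 5203, 4174 and 4793 counts. The lowest circSOD2-sh library was well above the highest NC library. The means were 420 ± 22.9 and 840 ± 69.7 (SD, n = 4 each), with a log2 fold change of 1.00 (SE 0.09, 95% interval 0.80 to 1.19, edgeR adjusted p = 3.37e-06). Its rank among known miRNAs rose from between 71 and 76 to between 58 and 60. Its share of known counts was 0.0778% ± 0.0028 in NC and 0.122% ± 0.0068 in circSOD2-sh. miR-425-5p remained called higher under all 21 alternatives, with a log2 fold change from 0.65 with totals of known miRNAs (edgeR adjusted p = 3.43e-05) to 1.96 with library totals (edgeR adjusted p = 1.19e-08). Without both libraries that stood apart it was 0.82 (edgeR adjusted p = 5.43e-06).

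miR-425-3p, the opposite arm of the same hairpin, was lower in circSOD2-sh with TMM and higher with library totals, upper-quartile factors and limma on the deposited CPM. It was at 231, 213, 245 and 242 normalized CPM in NC replicates 1 to 4, from 1506, 1386, 1438 and 1078 counts. It was at 164, 144, 166 and 171 normalized CPM in circSOD2-sh replicates 1 to 4, from 962, 818, 828 and 959 counts. Each circSOD2-sh library was below each NC library. The means were 233 ± 14.4 and 161 ± 11.5 (SD, n = 4 each), with a log2 fold change of -0.53 (SE 0.09, 95% interval -0.74 to -0.32, edgeR adjusted p = 6.59e-04). Its rank was 92 to 97 among the known miRNAs of NC and 110 to 123 in circSOD2-sh. Without both libraries that stood apart the log2 fold change was -0.56 (edgeR adjusted p = 3.11e-04). Library totals gave 0.44 (edgeR adjusted p = 0.00291), with a median of all miRNAs of 0.96 in that fit. Set against the median of all tested miRNAs of the same fit, miR-425-3p was below it in all 22 fits, by 0.29 to 0.63 on the log2 scale. In the same 22 fits miR-191-5p was 0.22 to 0.59 and miR-425-5p 0.85 to 1.23 above the median, while miR-191-3p was 0.025 to 0.40 below it. A change of scaling alone moves a member and this median together, so fits that differ only in scaling are not separate support. Without both libraries that stood apart, miR-191-3p (-0.25) was about level with the median of the known miRNAs alone (-0.26).

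**Figure D2:**
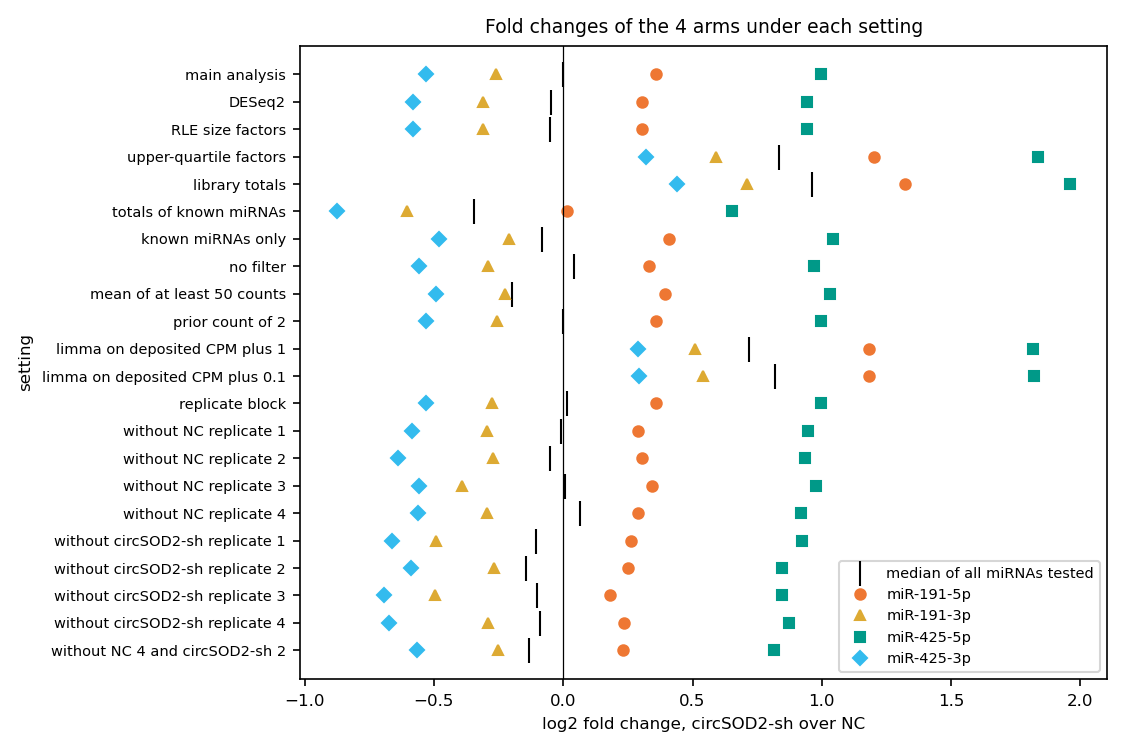
Log2 fold change (circSOD2-sh over NC, horizontal axis) of each member under each way of processing the counts (vertical axis), with a black tick at the median of all tested miRNAs. The 5p arms lie right of the tick and the 3p arms left of it in all 22 fits, while the sign of the 3p arms changes with the scaling. A change of scaling alone moves the members and the tick together, so fits that differ only in scaling are not separate support.

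The ratio of the arms within a library does not depend on the scaling of that library, apart from the 0.5 normalized CPM added to each arm. It was computed for the 117 hairpins of known miRNAs with both arms tested, and limma called 68 of them (58.1%), 36 (30.8%) with a higher 5p to 3p ratio in circSOD2-sh. For miR-425 the ratio was 1.80, 1.99, 1.82 and 1.62 in NC replicates 1 to 4 and 4.57, 6.34, 5.03 and 4.99 in circSOD2-sh replicates 1 to 4. The 5p arm was thus the larger in every library. Every ratio in circSOD2-sh was above every ratio in NC, a separation that was not counted over the other hairpins. The mean log2 ratio was 0.85 ± 0.12 in NC and 2.38 ± 0.20 in circSOD2-sh (SD, n = 4 each), a difference of 1.53 (SE 0.14, limma adjusted p = 8.46e-06). The 5p arm held 64.3% ± 1.97 of the sum of both arms in NC and 83.8% ± 1.84 in circSOD2-sh. That sum was 653 ± 26.7 normalized CPM in NC and 1001 ± 63.5 in circSOD2-sh. Without both libraries that stood apart the difference of log2 ratio was 1.38 (limma adjusted p = 4.51e-05). By its size this change ranked 33 of the 117 hairpins, whose median absolute change was 0.60. With TMM the arms of miR-425 were each called, in opposite directions, which held for 21 of the 117 hairpins (17.9%).

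For miR-191 the 5p to 3p ratio was 897, 890.1, 1231 and 891 in NC replicates 1 to 4 and 1141, 1855, 1324 and 1783 in circSOD2-sh replicates 1 to 4. The groups overlapped, because NC replicate 3 was above circSOD2-sh replicate 1. The mean log2 ratio was 9.92 ± 0.23 in NC and 10.55 ± 0.34 in circSOD2-sh (SD, n = 4 each), a difference of 0.63 (SE 0.19, limma adjusted p = 0.0193). Its size ranked 57 of 117, close to the median hairpin. The minor arm held 0.101% ± 0.0152 of the sum in NC and 0.0658% ± 0.0161 in circSOD2-sh, and the asymmetry of this hairpin ranked 6 of 117 in NC and 4 in circSOD2-sh. The call was lost without NC replicate 1 (0.59, limma adjusted p = 0.052), without NC replicate 2 (0.59, limma adjusted p = 0.0514), without circSOD2-sh replicate 4 (0.54, limma adjusted p = 0.0577) and without both libraries that stood apart (0.48, limma adjusted p = 0.0944).

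Since both hairpins lie in the same intron, their products were also compared with each other. The ratio of miR-191-5p to miR-425-5p was 37.4, 39.3, 38.9 and 39.4 in NC replicates 1 to 4 and 26.1, 22.7, 26.2 and 24.8 in circSOD2-sh replicates 1 to 4. All circSOD2-sh values were below all NC values, while the levels of 60.3% of the 895 miRNAs also did not overlap. The mean log2 ratio of miR-191-5p to miR-425-5p was 5.28 ± 0.04 in NC and 4.64 ± 0.09 in circSOD2-sh (SD, n = 4 each). The difference was -0.64 with an exact two-sided permutation p of 0.0286, the smallest that 4 against 4 libraries allow. Its adjusted p was 0.0571 over the 2 ratios compared, and could be lower only if both ratios reached that smallest p. The ratio of miR-191-3p to miR-425-3p was 0.0750, 0.0880, 0.0576 and 0.0715 in NC replicates 1 to 4 and 0.105, 0.0778, 0.0993 and 0.0695 in circSOD2-sh replicates 1 to 4. Here the groups overlapped, and the log2 difference was 0.26 with an exact permutation p of 0.2 before and after adjustment. Without both libraries that stood apart, the first ratio differed by -0.58 and the second by 0.31, where too few libraries are left for the exact test to reach 0.05.

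**Figure D3:**
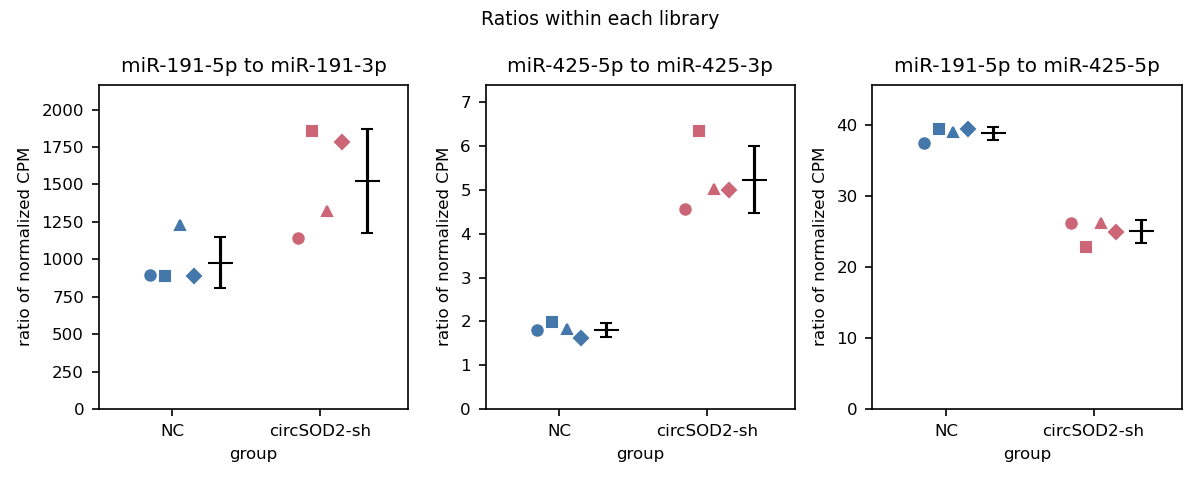
Ratios within each library (vertical axes from 0) of the 5p to the 3p arms of miR-191 and of miR-425, and of miR-191-5p to miR-425-5p, in 4 NC and 4 circSOD2-sh libraries. Circles, squares, triangles and diamonds are replicates 1, 2, 3 and 4, with the mean and SD in black. For miR-425 and for miR-191-5p over miR-425-5p the groups do not overlap.

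The profiles of the members over the 8 libraries were compared with those of 133 known miRNAs with a mean of at least 100 normalized CPM, by the root mean square difference of log2 values after each miRNA was centred on its own mean. Nearest to miR-191-5p were let-7d-5p, at 0.064, and miR-103a-3p, at 0.065, against a median of 0.365 over the candidates. miR-425-5p had miR-331-3p at 0.064 and miR-23b-3p at 0.125, with a median of 0.629. miR-425-3p had miR-92a-1-5p at 0.079 and miR-769-5p at 0.090, with a median of 0.318, and miR-191-3p had let-7g-5p at 0.176 and miR-28-5p at 0.179, with a median of 0.335. No member had another member this near, but the 133 candidates far outnumber the members, so a nearer candidate says little about the cluster. The smallest difference between members was 0.262, between the 3p arms, below their medians of 0.335 and 0.318. Next was 0.324 between the 5p arms, below their medians of 0.365 and 0.629. The other pairs lay above the medians of both members, and the largest difference was 0.775 between the arms of miR-425.

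Of 27 other miRNAs listed as having a hairpin on 3p, 18 were in the count table and 7 had enough counts to be tested. Of these 3 were higher, 1 was lower and 3 were not called, with a median log2 fold change of 0.22, beside 65.7% called and a median of -0.0021 over all 895 tested. Among the 7 tested, miR-26a-5p, miR-138-5p and miR-128-3p are also made from a hairpin on another chromosome. miR-26a-5p was called higher, at 13391 ± 675 normalized CPM in NC and 19095 ± 968 in circSOD2-sh (SD, n = 4 each). Its log2 fold change was 0.51 (SE 0.06, edgeR adjusted p = 6.38e-05). The others called higher were scarce, with at most 3 counts in any NC library. They passed the count filter only through the circSOD2-sh libraries, so their calls were not independent of the filter. miR-26a-1-3p was at 4.66 ± 1.23 normalized CPM in circSOD2-sh, at least 6.91-fold higher than the level of 3 counts in an NC library, and miR-138-1-3p was at 3.34 ± 1.097, at least 4.95-fold higher. let-7g-3p was lower, at 4.03 ± 0.81 in NC and 2.16 ± 0.40 in circSOD2-sh, with a log2 fold change of -0.89 (SE 0.22, edgeR adjusted p = 0.00587). It had at most 33 counts in any library and was not called with library totals (log2 fold change 0.068, edgeR adjusted p = 0.795). The 3 not called with TMM had log2 fold changes of -0.29 (let-7g-5p), 0.22 (miR-138-5p) and 0.17 (miR-128-3p). let-7g-5p was near the threshold (edgeR adjusted p = 0.0608) and was called lower whichever circSOD2-sh library was left out. The same held for miR-4443, which was not tested in the main fit and was scarce, with at most 22 counts in any library. With all libraries and no filter, miR-4443 was not called (log2 fold change -1.09, edgeR adjusted p = 0.0585). It was called lower with known miRNAs only (-1.01, edgeR adjusted p = 0.0221). Without circSOD2-sh replicate 2, alone or together with NC replicate 4, 9 of the list were tested, of which 3 were higher and 4 were lower. Over all miRNAs, 661 of 969 were called without that library and 659 of 945 without both. The 4 were let-7g-3p, let-7g-5p, miR-128-3p and miR-4443, and miR-128-3p, which is also on the list of neural markers, was then at -0.26 without that library and at -0.27 without both. miR-138-5p was at -0.12 and -0.055 and was not called. With library totals 6 of 7 were called, all of them higher, beside 771 of 895 called over all, 613 of them higher.

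Among 12 miRNAs often used as internal references, like miR-191-5p and miR-425-5p, 5 were higher, 2 were lower and 5 were not called with TMM. Their median log2 fold change was 0.17, and 65.7% of all 895 miRNAs were called. Library totals called all 12 higher, beside 771 of 895 called over all. Totals of known miRNAs called 7, of which 2 were higher, beside 616 of 895 called over all. Without both libraries that stood apart, 8 of the 12 were called, 5 of them higher, beside 659 of 945 called over all. The list was thus called about as often as miRNAs in general. The largest rise was that of miR-484, with a log2 fold change of 2.43. It was scarce, at 0.86 ± 0.28 normalized CPM in NC and 4.71 ± 0.25 in circSOD2-sh (SD), with at most 27 counts in any library. It passed the count filter only through the circSOD2-sh libraries, so its call was not independent of the filter. Next were miR-26a-5p (0.51), miR-423-3p (0.50), miR-93-5p (0.44) and miR-103a-3p (0.40). let-7a-5p, a tumour suppressor miRNA of the let-7 family, fell by 0.62 (edgeR adjusted p = 1.13e-04) and miR-16-5p fell by 0.58 (edgeR adjusted p = 1.57e-04) on the log2 scale. The 5 not called were between -0.42 (miR-423-5p) and 0.24 (miR-186-5p). The change of miR-425-5p was larger than that of 11 of the 12, and that of miR-191-5p lay within their range.

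**Figure D4:**
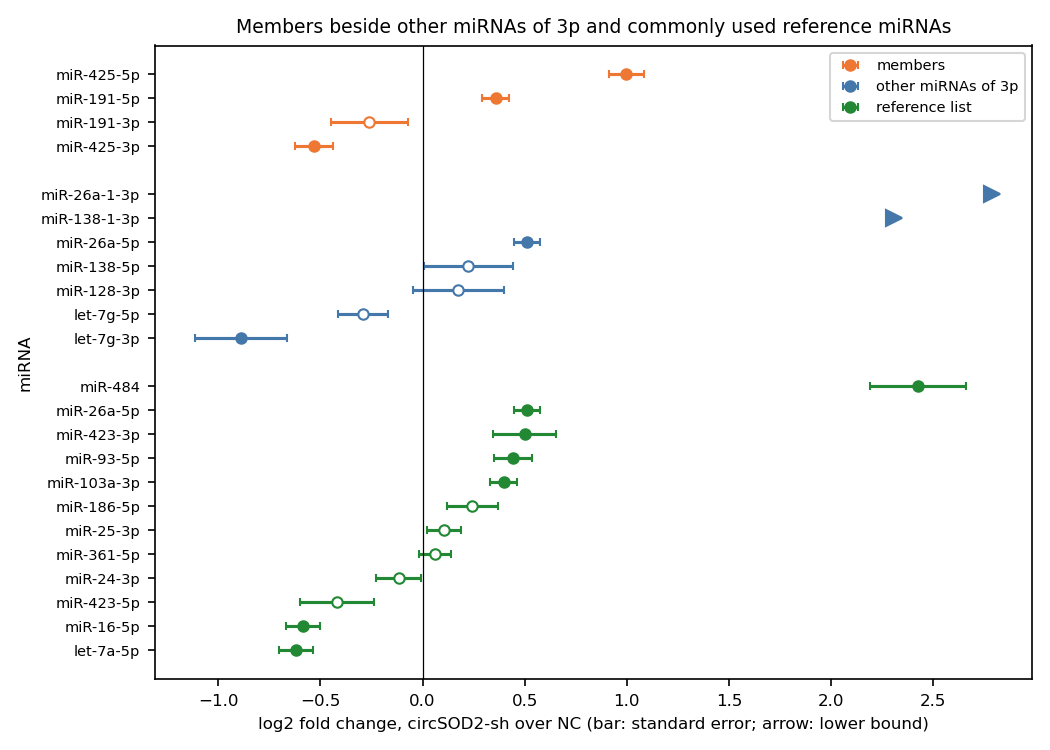
Log2 fold change (circSOD2-sh over NC, horizontal axis, bars are standard errors) of the 4 members, 7 tested miRNAs of 3p and 12 reference miRNAs. Filled points had an edgeR adjusted p under 0.05, open points did not, and arrows mark lower bounds. miR-425-5p lies above all reference miRNAs other than miR-484, which was scarce.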

How the data were processed

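Small RNA libraries of 4 NC and 4 circSOD2-sh samples of 786O were used. Read counts of each mature miRNA were deposited by the authors as counted, with no scaling, beside CPM scaled by the authors to a total larger than the listed counts. The submitters' processing notes name FastQC 0.11.2, Trimmomatic 0.36, Bowtie 1.1.1 and GRCh38, and the counting tool and miRNA annotation are not given in the sources used here. The 7 columns of the authors' own comparison (mean CPM, fold changes, p-values and calls) were not used.

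Counts were fitted with edgeR 4.0.16 in R 4.3.3 (filterByExpr, minimum count 10, TMM, quasi-likelihood, prior count 0.125, Benjamini-Hochberg over 895 miRNAs). Arm ratios were tested with limma 3.58.1. Alternatives were DESeq2 1.42.0, other normalizations and filters, limma on the deposited CPM, the replicate number as a block, and libraries left out. Scripts were tested on simulated data. Exact tests were two-sided. Intervals cover 95%.

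The members, gene lists and libraries left out were chosen with earlier results of these data known. Named were the members, the 2 nearest profiles of each, and the called miRNAs of the 3p and reference lists. The other members of these lists were named after their values were seen. Of the 3p list, miR-566 has no position in the RefSeq table. Figures were drawn with matplotlib 3.10.9.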

Additional observations from a re-analysis of the deposited data

Results flagged for a closer look

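In each group of 4 libraries, the gap of the highest or lowest value to its neighbour was set against the range of the group (Dixon's 95% critical value, 0.829). Of 32 groups examined 7 passed, where chance gives about 1.6. Among the members only the log2 ratio of miR-191-5p to miR-191-3p did, which was 10.27 in NC replicate 3 while the others of its group were at 9.80 to 9.81. The 3p arm of that library rests on 80 counts.

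The other 6 were summed levels of marker miRNAs of other tissues, in normalized CPM. NC replicate 4 had 171.7 of erythroid markers (26.8 to 42.8 in the other NC libraries), 17.1 of leukocyte markers (1.19 to 2.001) and 554.0 of stroma and muscle markers (17.7 to 22.8). circSOD2-sh replicate 2 had 5238 of neural markers (476 to 494 in the other circSOD2-sh libraries), 14.7 of leukocyte markers (2.13 to 3.21) and 237.8 of stroma and muscle markers (18.3 to 39.3). The part of these libraries in the level of the members was not tested beyond leaving them out.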

How the results depend on the processing

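miR-425-5p and its arm ratio kept their direction and call under all alternatives run (21 and 13). The ratios between the hairpins kept their direction under all 13, some of which leave too few libraries for the exact test to pass 0.05. miR-191-3p turned to 0.59 with upper-quartile factors, 0.71 with library totals, and 0.51 and 0.54 with limma on the deposited CPM plus 1 and plus 0.1, and miR-425-3p turned to 0.32, 0.44, 0.29 and 0.29 (log2 fold changes). In these fits the median of all miRNAs was 0.83, 0.96, 0.72 and 0.82, and the share of calls that were higher was 78.1%, 79.5%, 77.4% and 77.2%, against 50.7% with TMM and 34.7% with totals of known miRNAs. With the latter, miR-191-5p was at 0.013, no longer called, and miR-191-3p at -0.60, now called. The miRNAs called numbered 246 with known miRNAs only and 361 with a mean of at least 50 counts, where fewer were tested. Leaving out 1 library gave 537 to 661 calls, 0.18 to 0.34 for miR-191-5p and 0.52 to 0.75 for the arm ratio of miR-191, which was 0.48 without NC replicate 4 and circSOD2-sh replicate 2. The 3p list had 1 call among 4 tested with a mean of at least 50 counts, beside 361 of 502 over all. Where no cause is given, the cause was not tested.

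Same-numbered libraries did not deviate together (correlations 0.260, -0.099, 0.096 and -0.174), so the numbers were not taken as pairs. With the replicate number as a block, 574 miRNAs were called and the members were at 0.36, -0.28, 1.00 and -0.53, with no call changed. Only replicates 1 and 3 correlated best with their own number.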

Other observations

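The circle of circSOD2, 462 bases from exons 5 to 7 of transcript SOD2-215 (GENCODE release 29), was searched on its own strand for the complements of the 3 seeds printed above, which are TTCCGTT for miR-191-5p, AGCGCAG for miR-191-3p and TTCCCGA for miR-425-3p. Each had 0 copies, including across the joined ends, and the complements of bases 2 to 7 had 0 copies as well. Of 146685 windows of the same length from coding transcripts, 0.761%, 2.08% and 1.19% held them. miR-425-5p, whose sequence was not matched by name, was not searched.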
